A study of Homo sapiens with 24 samples.

Results

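The genes PTBP1, PTBP2 and PTBP3, which code for the polypyrimidine tract-binding (PTB) protein family, were followed through RNA-seq libraries of human cells that expressed 1 of 7 microRNAs (miRNAs). They are 3 of the 29794 genes in the count tables and were found by symbol from the Ensembl identifiers. The genes were selected on these measurements: the CPM (read counts scaled to the size of each library) of each miRNA group against the empty vector of its own batch, with the level of PTBP2 in miR-1 cells already known. Their levels and fold changes are therefore given as a description, with errors but with no p-value. All 3 passed the filter on low counts in both batches, in which 14348 and 14054 genes were tested.

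The cells were Flp-In T-REx 293, a derivative of the HEK293 human embryonic kidney line that carries a tetracycline repressor. Every group was transduced with a lentivirus holding a doxycycline-inducible GFP cassette, kept under 1 mg/mL geneticin over 6 days of selection, and given 1 µg/mL doxycycline for 7 days. The cassette was driven by a CMV promoter under the tetracycline repressor. In the miRNA groups a synthetic hairpin sat in its 5'UTR intron, and the empty vector lacked a hairpin, so that the controls also carried GFP, geneticin resistance and the drug. In batch 1, miR-1, miR-122 and their empty vector had 2 libraries each. In batch 2, an empty vector of its own, miR-133a, miR-155 and 3 miRNAs of pluripotent cells (miR-302a, miR-372, miR-373) had 3 libraries each. Each replicate came from its own viral transduction of the parental line. The polyadenylated RNA of each culture was sequenced by strand from 1000 ng of total RNA.

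Batch 1 libraries held 20153452 to 21595191 counted reads, and batch 2 libraries 13047400 to 35040778 with a median of 14168315. No member had fewer than 617 reads in any library. Of 9 markers of the HEK293 line, 7 were in the tables and all 7 had a median above 1 CPM, whereas 0 of 4 liver, 0 of 4 blood and 1 of 6 muscle markers did. The summed level of 5 neuron markers was 36.5 to 39.0 CPM in the batch 1 empty vector, 20.5 CPM in both miR-1 libraries, 27.4 to 28.3 CPM with miR-122 and 28.3 to 44.03 CPM over batch 2. Of these 5, SYT1 and TUBB3 had medians below 1 CPM.

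PTB proteins bind pyrimidine-rich RNA and regulate exon inclusion, polyadenylation and mRNA stability. PTBP1 is made in most non-neuronal cells, PTBP2 (also called nPTB or brPTB) is best known from neurons, testis and developing muscle, and PTBP3 (ROD1) was first described in blood cells. It is textbook knowledge that PTBP1 represses an exon of the PTBP2 transcript, that the transcript without this exon is degraded by nonsense-mediated decay, and that PTBP2 replaces PTBP1 as neurons develop. A miRNA guides Argonaute to mRNAs that pair with its seed, mostly in the 3'UTR, and the bound mRNA is usually repressed. miR-1 and miR-133a are made in heart and skeletal muscle, miR-122 in liver, miR-155 in immune cells, and the other 3 in pluripotent cells.

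The mature miRNAs are shown because their seeds (bases 2 to 8, in capitals) decide which sites in the family could pair. The sequences are those of RefSeq, and 3 of the 7 miRNAs share 1 seed.
miR-1: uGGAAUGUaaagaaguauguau
miR-122: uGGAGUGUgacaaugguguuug
miR-133a: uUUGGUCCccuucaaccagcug
miR-155: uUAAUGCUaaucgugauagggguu
miR-302a: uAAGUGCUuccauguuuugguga
miR-372: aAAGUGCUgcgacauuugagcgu
miR-373: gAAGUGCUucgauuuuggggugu

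On GRCh37, the build that underlies hg19, PTBP1 (ENSG00000011304.12) lies at chr19:797075-812327 on the plus strand, PTBP2 (ENSG00000117569.14) at chr1:97187221-97289294 on the plus strand, and PTBP3 (ENSG00000119314.11) at chr9:114979996-115095944 on the minus strand. The 3'UTR of the annotated transcript that was searched was 1501 bases long in PTBP1, 10333 in PTBP2 and 6135 in PTBP3. It was searched for an 8mer (a match to the seed followed by an A), a 7mer-m8 (the match to the seed alone) and a 7mer-A1 (a match to seed bases 2 to 7 followed by an A). For miR-133a, all 3 members held an 8mer, shown here in capitals within the mRNA sequence.
PTBP1 (chr19:811857-811864): cttcaaattttGGACCAAAgtctcatttct
PTBP2 (chr1:97279994-97280001): acaaccaggtgGGACCAAAgtttatgtgcc
PTBP3 (chr9:114982072-114982079): gagaaaaaacaGGACCAAAgtttatgtgcc
The PTBP2 and PTBP3 windows shared a run of 19 bases, and the PTBP1 window shared 10 bases with either. The 8mer was in the 3'UTR of 7 of 12 annotated coding transcripts of PTBP1, 8 of 9 of PTBP2 and 3 of 7 of PTBP3. PTBP1 and PTBP3 each held a 7mer-A1 for miR-133a as well, at chr19:811484-811490 and chr9:114981453-114981459. Of the tested genes with an annotated 3'UTR, 17.1% held any site for miR-133a, and 9.05% held an 8mer or 7mer-m8. These shares, like those given below for the other miRNAs, cover 3'UTRs of all lengths. They were not matched to the lengths of the members, and a longer 3'UTR has more places for a match.

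For miR-1, the 3'UTR of PTBP1 held a 7mer-A1 that started 45 bases into the 3'UTR and a 7mer-m8 near its far end, PTBP2 held a 7mer-A1, and PTBP3 held a 7mer-m8. The PTBP1 sites are shown in capitals, with that of PTBP2.
PTBP1 7mer-A1 (chr19:810871-810877): acaacttccatCATTCCAgagaaaagcca
PTBP1 7mer-m8 (chr19:812155-812161): ggaccccacgcACATTCCgttgccttacc
PTBP2 7mer-A1 (chr1:97285727-97285733): aaatactgttcCATTCCAttagtagtttt
The PTBP2 site was in 1 of 9 coding transcripts, the one with the longest 3'UTR, and the PTBP3 site in 2 of 7. PTBP2 and PTBP3 also held 1 match each for miR-1 in the coding region. Any site for miR-1 was present in 23.99% of the tested genes.

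For miR-122, PTBP3 held 2 sites in its 3'UTR and 1 in its coding region, PTBP2 held a 7mer-A1, and PTBP1 held 0. The PTBP3 sites of the 3'UTR are shown.
PTBP3 7mer-m8 (chr9:114985512-114985518): ttcactgtaagACACTCCtttaaataatg
PTBP3 7mer-A1 (chr9:114984230-114984236): aatagccacttCACTCCAgccctggaaca
These were in 5 and 3 of 7 coding transcripts, and 25.4% of tested genes held a site for miR-122. The seed shared by miR-302a with miR-372 and miR-373 had a 7mer-A1 in PTBP2 alone among the members, in 1 of 9 coding transcripts, against any site in 29.9% of tested genes. No member held a site for miR-155, which 19.1% of tested genes did. A match of letters is a description of the sequence and does not show that the miRNA binds there.

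**Figure D1:**
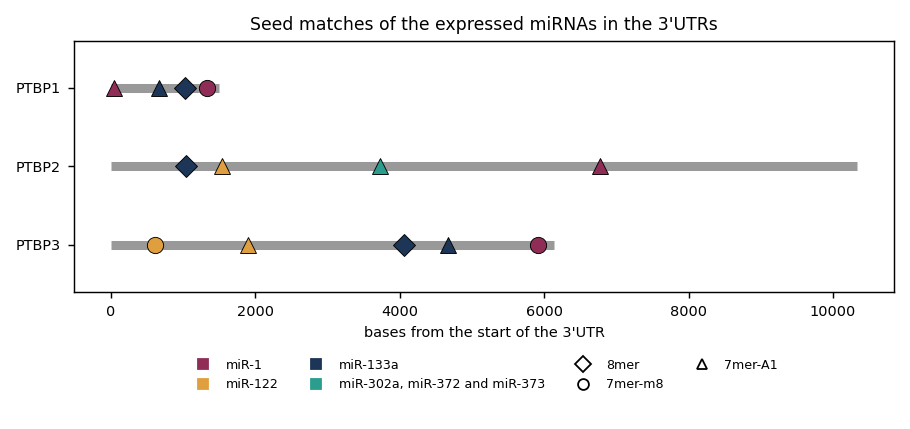
Seed matches in the 3'UTRs of PTBP1, PTBP2 and PTBP3. The horizontal axis gives bases from the start of the 3'UTR, the gray bar is the 3'UTR, colors stand for the miRNA and marker shapes for the type of match. All 3 genes hold an 8mer (diamond) for miR-133a, and the 2 matches of miR-1 in PTBP1 lie toward the ends of its 1501-base 3'UTR.

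With miR-1, PTBP1 was lower and PTBP2 was higher than with the empty vector, while PTBP3 was at the control level. PTBP1, the broadly expressed repressor, was at 568 and 577 CPM in the empty vector libraries and at 334 and 327 CPM in the miR-1 libraries. The groups were far apart, and the log2 fold change was -0.79 ± 0.04 (SE; 95% interval -0.87 to -0.71; n = 2 against 2), or 57.8% of control. PTBP2, the paralog of neurons, was at 47.3 and 49.0 CPM in the empty vector and at 129 and 132 CPM with miR-1. Both miR-1 libraries lay above both controls, with a log2 fold change of 1.44 ± 0.05 (95% interval 1.33 to 1.54), a 2.70-fold difference. Ordered by log2 fold change among the 14348 genes tested, PTBP2 was number 6 from the top and PTBP1 number 342 from the bottom. PTBP3 was at 110.1 and 103 CPM in the empty vector and at 109 and 104 CPM with miR-1. The groups overlapped and the log2 fold change was 0.00 ± 0.05 (95% interval -0.10 to 0.10). The neuron marker sum given above was lower in the miR-1 libraries than in their controls, and its part in the PTBP2 value was not tested.

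With miR-1, 2 of 3 members had groups that did not overlap, which held in either direction for 61.3% of all genes tested. Since the members were chosen on these values, nothing is read from this count or from those of the other miRNAs. In miR-1 cells 3162 tested genes held a 3'UTR site for miR-1, and 243 of these (7.69%) were called higher by edgeR at an adjusted p under 0.05. Of all 14348 genes tested, 1550 were called higher. In bulk RNA, a lower value from fewer expressing cells cannot be told apart from less RNA per cell.

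With miR-122, PTBP1 and PTBP2 were close to control and PTBP3 was lower. PTBP3 was at 84.5 and 87.4 CPM, below both controls at 110.1 and 103 CPM, with a log2 fold change of -0.31 ± 0.05 (95% interval -0.41 to -0.20), or 80.9% of control. PTBP1 was at 598 and 593 CPM, just above its controls without overlap, with a log2 fold change of 0.06 ± 0.04 (95% interval -0.02 to 0.13). PTBP2 was at 47.6 and 47.3 CPM, and its log2 fold change of -0.02 ± 0.05 had a 95% interval of -0.13 to 0.09. In all, 2 of 3 members did not overlap with their controls, as was the case for 47.6% of all genes tested.

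The seeds of miR-1 and miR-122 differ at a single base, and both miRNAs were measured in the same batch against the same controls. The difference miR-1 minus miR-122 was -0.85 ± 0.04 on the log2 scale for PTBP1 (95% interval -0.93 to -0.77). It was 1.46 ± 0.05 for PTBP2 (95% interval 1.36 to 1.56) and 0.31 ± 0.05 for PTBP3 (95% interval 0.21 to 0.41). PTBP1 was thus lower and PTBP2 and PTBP3 were higher in miR-1 cells than in miR-122 cells. The members were chosen on these libraries, so these intervals give the uncertainty of the fitted estimates and are not read as tests.

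With miR-133a, PTBP1 and PTBP3 were lower and PTBP2 was higher. PTBP1 was at 498, 556 and 539 CPM in the batch 2 empty vector and at 261, 253 and 268 CPM with miR-133a. No library of either group came near the other, and the log2 fold change was -1.03 ± 0.08 (95% interval -1.19 to -0.86; n = 3 against 3), or 49.1% of control. PTBP2 was at 56.6, 40.7 and 51.1 CPM in the empty vector and at 123, 123 and 110.5 CPM with miR-133a. Every miR-133a library lay above every control although the controls varied, and the log2 fold change was 1.27 ± 0.11 (95% interval 1.04 to 1.49), a 2.41-fold difference. PTBP3 was at 106, 112 and 101 CPM in the empty vector and at 70.4, 69.2 and 68.0 CPM with miR-133a. Its groups did not overlap either, and the log2 fold change was -0.62 ± 0.07 (95% interval -0.76 to -0.47), or 65.2% of control. Among the 14054 genes tested, PTBP1 was number 96 from the bottom, PTBP3 number 487 from the bottom and PTBP2 number 19 from the top.

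All 3 members did not overlap with their controls, as was the case for 35.4% of all genes tested. PTBP2 was higher although it holds the 8mer printed above. Of the 2225 tested genes with a 3'UTR site for miR-133a, 15 (0.674%) were called higher, beside 192 of all 14054 genes tested. The neuron marker sum was 35.4 to 38.4 CPM with miR-133a and 35.2 to 38.5 CPM in its controls.

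With the other miRNAs of batch 2 the members were near control. PTBP1 was at 482, 523 and 471 CPM with miR-155, at 512, 559 and 499.6 CPM with miR-302a, at 493, 568 and 506 CPM with miR-372, and at 504, 567 and 493 CPM with miR-373. These libraries overlapped with the empty vector in all 4 groups, and the log2 fold changes ran from -0.11 ± 0.08 with miR-155 to -0.02 ± 0.08 with miR-302a. PTBP2 was at 49.3, 52.5 and 47.0 CPM with miR-155, at 59.0, 53.0 and 56.4 CPM with miR-302a, at 59.8, 55.3 and 49.6 CPM with miR-372, and at 61.2, 50.6 and 50.3 CPM with miR-373. All 4 overlapped with the controls, and the log2 fold changes were 0.01 ± 0.11 with miR-155, 0.18 ± 0.11 with miR-302a, 0.15 ± 0.11 with miR-372 and 0.12 ± 0.11 with miR-373.

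PTBP3 was at 105, 108 and 114 CPM with miR-155, at 90.0, 102 and 99.4 CPM with miR-302a, at 91.2, 92.0 and 95.8 CPM with miR-372, and at 94.7, 104 and 93.2 CPM with miR-373. The miR-372 libraries lay below all 3 controls, with a log2 fold change of -0.19 ± 0.07 (95% interval -0.33 to -0.05), and the other groups overlapped with the controls. The log2 fold changes of PTBP3 were 0.04 ± 0.07 with miR-155, -0.13 ± 0.07 with miR-302a and -0.13 ± 0.07 with miR-373. Groups without overlap were found for 1 of 3 members with miR-372 (30.1% of all genes) and for 0 of 3 with miR-155 (30.8%), miR-302a (29.5%) and miR-373 (27.0%).

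**Figure D2:**
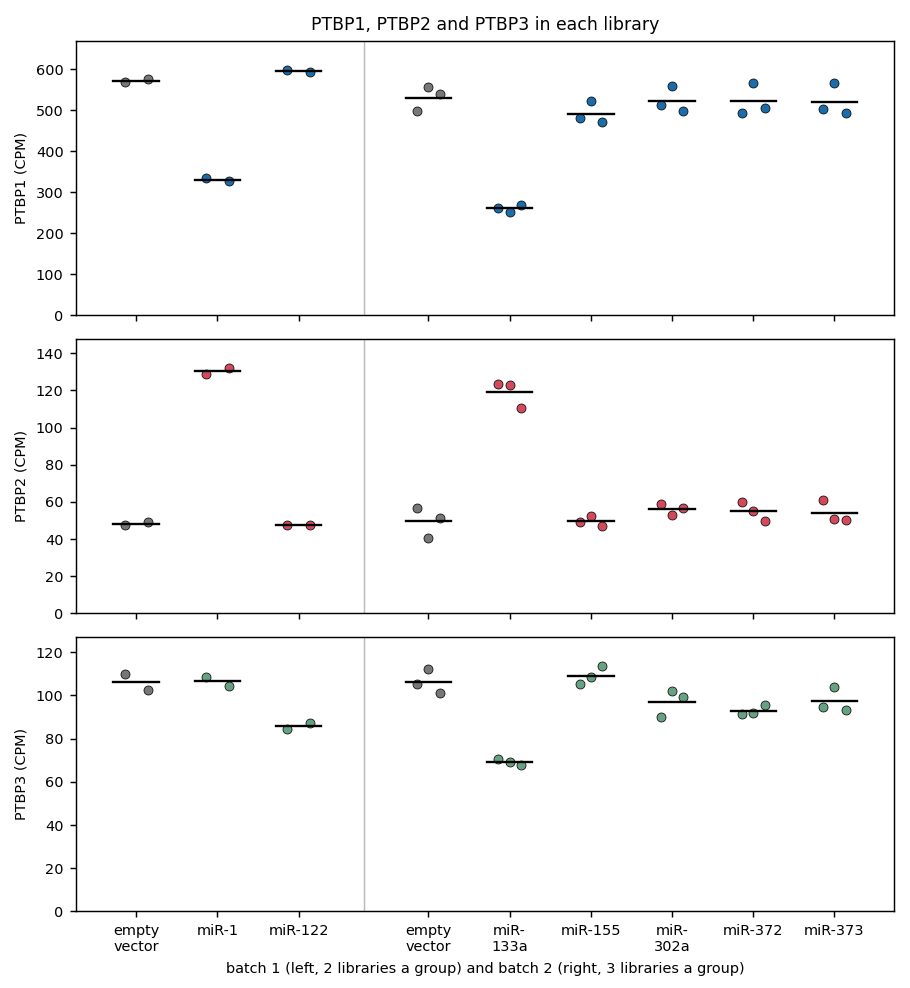
Level of PTBP1, PTBP2 and PTBP3 in each of the 24 libraries. The vertical axes give CPM from 0, points are libraries (gray for the empty vector), short lines are group means, and the vertical line separates the batches. In batch 1, PTBP2 stands at 129 to 132 CPM in the miR-1 libraries and at or below 49.0 CPM in the others. In batch 2, it stands at 110.5 to 123 CPM in the miR-133a libraries and at or below 61.2 CPM in the others.

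Ordered by mean level in batch 2, PTBP1 ran from the empty vector (531 ± 30.1 CPM, SD, n = 3) through miR-302a, miR-372 and miR-373 to miR-155 (492 ± 27.3), and neighbours in that order overlapped until miR-133a (261 ± 7.48). PTBP2 ran from miR-133a (119 ± 7.26) to miR-302a (56.2 ± 3.02), and from there to the empty vector (49.5 ± 8.08) neighbours overlapped. PTBP3 ran from miR-155 (109 ± 4.13) and the empty vector (106 ± 5.55) down to miR-372 (93.0 ± 2.44) with overlap between neighbours, and then to miR-133a (69.2 ± 1.2). In each member, miR-133a stood at one end of the order and apart from its neighbour. In batch 1, PTBP1 was at 595 ± 3.80 CPM with miR-122, 572 ± 5.80 with the empty vector and 331 ± 4.68 with miR-1. The tables of the batches were normalized separately, so levels were not compared across them.

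The direct differences within batch 2 are a description as well. PTBP1 and PTBP3 were lower and PTBP2 was higher with miR-133a in both comparisons. Against miR-155, PTBP1 differed by -0.92 ± 0.08 on the log2 scale (95% interval -1.08 to -0.75), PTBP2 by 1.26 ± 0.11 (1.04 to 1.49) and PTBP3 by -0.66 ± 0.07 (-0.80 to -0.51). Against the mean of the 3 miRNAs with a common seed, PTBP1 differed by -1.002 ± 0.07 (-1.15 to -0.86), PTBP2 by 1.11 ± 0.08 (0.94 to 1.29) and PTBP3 by -0.47 ± 0.06 (-0.59 to -0.35). Between miR-155 and that same mean, the differences were -0.09 ± 0.07 for PTBP1 (-0.22 to 0.05), -0.15 ± 0.09 for PTBP2 (-0.34 to 0.04) and 0.19 ± 0.06 for PTBP3 (0.07 to 0.30). Of these last differences, that of PTBP3 was the largest in size.

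**Figure D3:**
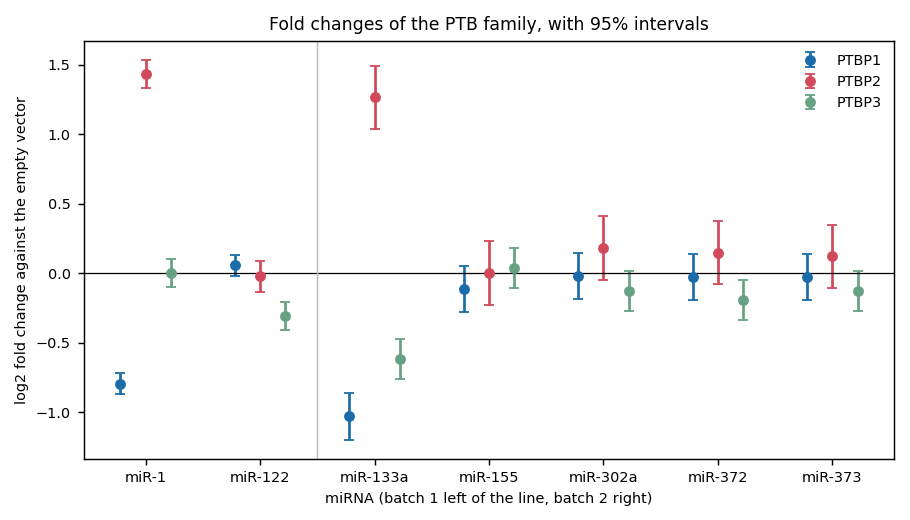
Log2 fold change of each member against the empty vector of its batch. Points are edgeR estimates, bars are 95% intervals, the horizontal axis gives the miRNA, and the vertical line separates the batches. PTBP1 is at -0.79 with miR-1 and -1.03 with miR-133a, PTBP2 at 1.44 and 1.27, and PTBP3 at 0.00 and -0.62.

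PTBP2 made up a larger share of the family with both miRNAs of muscle. Levels were compared between genes per length, as CPM per kb of the exon bases that were counted (3809 in PTBP1, 12266 in PTBP2 and 7520 in PTBP3). In the batch 1 empty vector PTBP1 was at 150.3 ± 1.52 CPM per kb, PTBP3 at 14.1 ± 0.72 and PTBP2 at 3.93 ± 0.10 (SD, n = 2). PTBP1 was thus the main family transcript of these cells, at 89.3% ± 0.43 of the summed CPM per kb, with PTBP3 at 8.40% ± 0.47 and PTBP2 at 2.33% ± 0.05. With miR-1 the share of PTBP1 was 77.8% ± 0.11, that of PTBP3 12.7% ± 0.19 and that of PTBP2 9.52% ± 0.30.

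In batch 2 the share of PTBP2 was 3.09%, 2.02% and 2.62% in the empty vector libraries and 11.4%, 11.7% and 10.2% in the miR-133a libraries. PTBP1 held 88.5% ± 0.82 in the empty vector and 78.4% ± 1.08 with miR-133a, and PTBP3 8.97% ± 0.49 and 10.5% ± 0.27. PTBP1 remained the largest share in every library. The summed level of the family was 66.3% of control with miR-1 (112 ± 1.43 against 168 ± 0.90 CPM per kb) and 55.5% with miR-133a (87.4 ± 1.49 against 158 ± 7.59). It was 101.9% of control with miR-122 and 93.8% to 98.4% with the other miRNAs of batch 2. Per length, PTBP2 was higher by less than PTBP1 was lower in both. The shares depend on the lengths used. With the exon lengths of a newer annotation, in which PTBP1 spans 7521 bases, PTBP3 took 14.1% in the batch 1 controls, 20.4% with miR-1, 15.0% in the batch 2 controls and 17.2% with miR-133a. PTBP2 then took 2.62%, 10.2%, 2.88% and 12.1%, so that with miR-133a it stood below PTBP3 and not above it. PTBP1 took 83.3%, 69.4%, 82.1% and 70.8%.

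**Figure D4:**
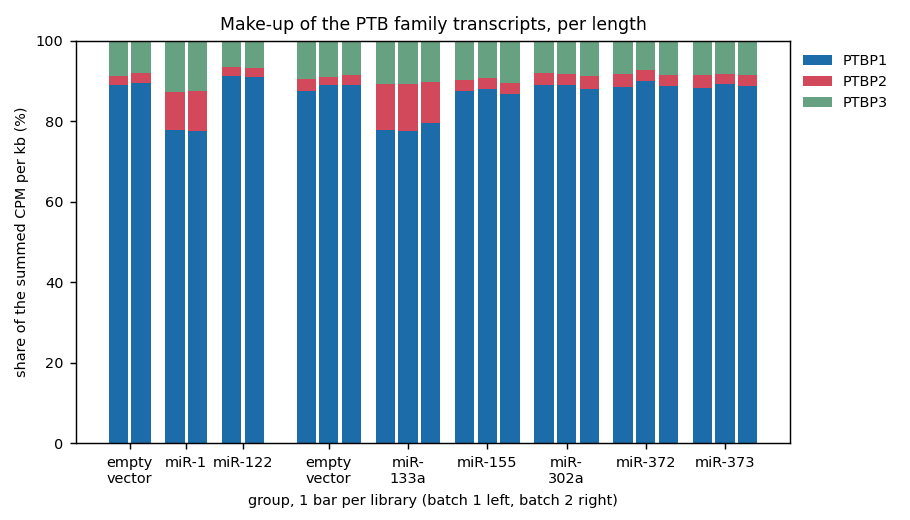
Share of each member in the summed CPM per kb of the family, 1 bar per library. The vertical axis runs from 0 to 100% and colors stand for the genes. PTBP2 takes 9.31% to 11.7% in the miR-1 and miR-133a libraries and 2.02% to 3.33% in the others.

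Reads can be assigned to 1 member only where sequences differ, so the transcripts were compared. The annotated transcripts of the 3 members shared no run of 31 bases with each other. PTBP1 shared 109 runs of 31 bases (1.36% of its own) and 0 runs of 50 bases with the pseudogene PTBP1P, which is not a row of the tables. The exons of PTBP1 also overlap the miRNA gene MIR4745 on the same strand over 62 bases. Among annotated transcripts, 4 of 24 of PTBP1, 4 of 24 of PTBP2 and 0 of 8 of PTBP3 are classed as targets of nonsense-mediated decay. The counts are sums over all exons of a gene, so transcripts with and without a given exon were not separated.

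To see what else of the pathway moved, 3 lists were followed, beginning with 20 transcripts that hold exons regulated by PTB proteins. Of these, 17 were tested. The lists count total mRNA of these genes, not the exons that PTB proteins regulate. With miR-1, 7 of 17 fell and 1 rose, beside 24.5% of all genes called, with a median log2 fold change of 0.01 over the list and 0.00 over all genes. The lowest were CACNA1C, a calcium channel subunit (log2 fold change -0.42 ± 0.14, adjusted p = 0.034), SRC, a tyrosine kinase (-0.30 ± 0.06, adjusted p = 0.0016), and FAS, a death receptor (-0.27 ± 0.08, adjusted p = 0.014). PKM, the pyruvate kinase whose alternative exons PTBP1 controls, rose by 0.18 ± 0.04 (adjusted p = 0.0012). DESeq2 called 4 of the list and 1726 of all genes tested. The calls of CACNA1C and FAS were lost with DESeq2, without empty vector replicate 2 and without either miR-1 library.

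With miR-133a, 4 of 17 fell and 0 rose, beside 5.34% of all genes called, and the median was -0.18 against 0.00. TPM1, a tropomyosin, fell by 0.79 on the log2 scale (SE 0.09, adjusted p = 1.5e-05). FLNA, an actin-crosslinking filamin, fell by 0.73 (SE 0.14, adjusted p = 0.0039), and CASP2, a caspase, by 0.53 (SE 0.08, adjusted p = 0.00029). TPM1 held 2 sites for miR-133a in its 3'UTR, and FLNA and CASP2 held 0. At an unadjusted p under 0.05, edgeR had 6 of the list lower and 1 higher. DESeq2 called 5 of the list and 1006 of all genes tested. With miR-122, 3 of 17 fell and 1 rose, beside 5.92% of all genes, with a median of -0.08. PKM was at 974.9 ± 4.29 CPM against 1896 ± 50.9 in its controls, a log2 fold change of -0.96 ± 0.04 (adjusted p = 3e-13), and held 1 site for miR-122. TPM1 fell by 0.21 (SE 0.05, adjusted p = 0.014), and FAS rose by 0.26 ± 0.07 (adjusted p = 0.036). DESeq2 called 1 of the list, and both of these calls were lost with DESeq2 and without either miR-122 library. That of FAS was also lost with the replicate block and without empty vector replicate 1.

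The second list held 14 partners and co-regulators of PTB proteins, all tested. RAVER1, a co-repressor that binds PTBP1, was at 81.0 ± 0.21 CPM with miR-122 against 162 ± 3.77 in the empty vector, a log2 fold change of -0.997 ± 0.04 (adjusted p = 2.2e-12). It held 2 sites for miR-122, of which 0 were an 8mer or 7mer-m8. PTBP1 itself was at 104% of control in the same cells. With miR-122 MBNL1, a splicing factor of muscle, fell as well (-0.34 ± 0.05, adjusted p = 0.00013), and 2 of 14 fell and 0 rose in all (5 lower and 0 higher at an unadjusted p under 0.05 by edgeR, 2 called by DESeq2), beside 5.92% of all genes called, with a median of -0.03. With miR-133a, RAVER1 (-0.47 ± 0.11, adjusted p = 0.015) and the splicing factor RBFOX2 (-0.33 ± 0.09, adjusted p = 0.037) fell, 2 of 14, and 0 rose (2 lower and 1 higher at an unadjusted p under 0.05 by edgeR, 2 called by DESeq2), beside 5.34% of all genes called, with a median of -0.03. Both calls were lost without any one miR-133a library and without empty vector replicate 2 or 3. With miR-1, 1 of 14 fell and 4 rose, beside 24.5% of all genes called, with a median of 0.01, and DESeq2 called 2. HNRNPH1 fell by 0.13 (SE 0.04, adjusted p = 0.018), and CELF1 (0.24 ± 0.04, adjusted p = 0.00058), MBNL1 (0.13 ± 0.05, adjusted p = 0.046) and RAVER1 (0.13 ± 0.04, adjusted p = 0.025) rose. The calls of HNRNPH1, MBNL1 and RAVER1 were lost with the replicate block and without either miR-1 library, and those of MBNL1 and RAVER1 also with DESeq2 and without empty vector replicate 2.

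The third list held 10 factors of nonsense-mediated decay, the process that degrades the short PTBP2 transcript. With miR-1, 3 of 10 rose and 0 fell, beside 24.5% of all genes called, with a median of 0.07 (3 higher and 1 lower at an unadjusted p under 0.05 by edgeR, 1 called by DESeq2). SMG5 (0.20 ± 0.04, adjusted p = 0.002), the kinase SMG1 (0.18 ± 0.06, adjusted p = 0.032) and the helicase UPF1 (0.12 ± 0.04, adjusted p = 0.039) were the ones that rose. The calls of SMG1 and UPF1 were lost with DESeq2, with the replicate block, with only the 2 groups compared and without miR-1 replicate 2, that of SMG1 also without empty vector replicate 2, and that of UPF1 without empty vector replicate 1 or miR-1 replicate 1. With miR-122 and miR-133a, 0 of 10 were called by edgeR or DESeq2, with 2 and 0 at an unadjusted edgeR p under 0.05 and medians of 0.00 and 0.01. Of the list genes called with miR-1, 8 were lower and 4 of these held a site for it. Another 8 were higher and 2 of these held a site, RAVER1 and SMG1. All 16 list genes called with miR-1 had smaller log2 fold changes in size than PTBP1 and PTBP2. The members were chosen on these values, so nothing is read from this comparison. Of the 16 list genes, 6 were also called under each of the 11 other settings tried. Among these 6 were CELF1, PKM, SMG5, SRC and, named after its values were seen, TPM1.

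With the other miRNAs few list genes were called, beside 7.63% of all genes with miR-155, 7.88% with miR-302a, 11.4% with miR-372 and 5.13% with miR-373. MBNL1 fell with miR-302a (-0.56 ± 0.09, adjusted p = 0.0006), miR-372 (-0.53 ± 0.09, adjusted p = 0.00069) and miR-373 (-0.41 ± 0.09, adjusted p = 0.0088), and held 1 site for their shared seed. MAPT, which codes for tau, fell with miR-302a (-0.45 ± 0.13, adjusted p = 0.037), miR-372 (-0.74 ± 0.13, adjusted p = 0.00099) and miR-373 (-0.51 ± 0.13, adjusted p = 0.025), also with 1 site. FAS fell with the same 3 miRNAs, by 0.47, 0.46 and 0.42 on the log2 scale (edgeR adjusted p = 0.012, 0.011 and 0.03), without a site. These 3 comparisons share their control libraries. TPM1 rose with miR-372 (0.30 ± 0.09, adjusted p = 0.035), and the decay factor SMG9 rose with miR-155 (0.24 ± 0.07, adjusted p = 0.049), the 1 list gene called there. TPM1 held 1 site for miR-372, and SMG9 held 0 for miR-155. Under 13 other settings SMG9 was called in 5 and TPM1 in 8. TPM1 lost its call with only the 2 groups compared, without any one control library and without miR-372 replicate 2, and SMG9 with only the 2 groups, with no filter or that of more than 1 CPM in every library, without any one control library and without miR-155 replicate 2 or 3. MAPT with miR-302a and with miR-373 lost its call without any one control library and without replicate 1 or 2 of the miRNA. FAS lost its call without empty vector replicate 1 in all 3 comparisons. It also lost it without miR-302a replicate 1, without miR-372 replicate 3 or with only the 2 groups compared for miR-372, and, for miR-373, without any other control library or miR-373 replicate 1 or 3. MBNL1 lost its call with miR-373 without replicate 3 of that miRNA. With miR-155, edgeR and DESeq2 called 0 of the 17 PTB-regulated transcripts and 0 of the 14 partners, with 3 and 2 at an unadjusted edgeR p under 0.05.

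**Figure D5:**
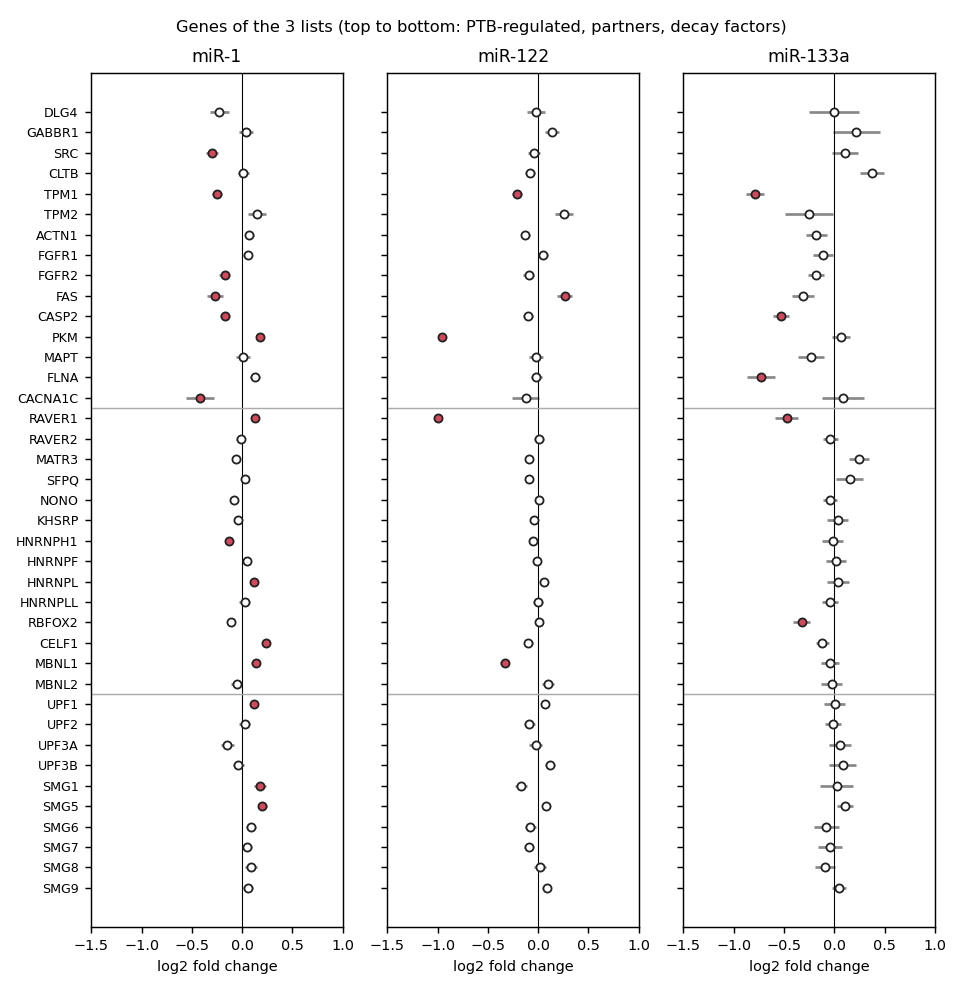
Log2 fold change of the tested genes of the 3 lists, without those not reported here, with miR-1, miR-122 and miR-133a. Points are edgeR estimates, bars are standard errors and often smaller than the points, filled points were called at an adjusted p under 0.05, and gray lines separate the lists. PKM (-0.96) and RAVER1 (-0.997) stand apart with miR-122, and TPM1 (-0.79) and FLNA (-0.73) with miR-133a.

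The genes whose pattern was most like that of each member were found over the 24 libraries, from log2 CPM relative to the mean of the empty vector of the batch, among 10185 genes. The libraries are shared by all these genes and fall into few groups, so the correlations are a description. PTBP1 was most like CERS2, a ceramide synthase (Pearson r = 0.97), TAGLN2, an actin-binding transgelin (0.95), and GCH1, the first enzyme of tetrahydrobiopterin synthesis (0.94). TAGLN2 had a log2 fold change of -1.11 ± 0.05 with miR-1 and -1.95 ± 0.09 with miR-133a, and CERS2 of -0.52 ± 0.04 and -0.85 ± 0.07. Most opposite to PTBP1 were the noncoding RNA LINC02893 (-0.95), PTBP2 (-0.95) and FSD1L (-0.92). PTBP1 was in turn the gene most opposite to PTBP2. Both were chosen on these libraries, and both departed from control mainly with miR-1 and miR-133a. Nothing is therefore read from this place in the order.

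PTBP2 was most like LINC02893 (r = 0.92), TTC13 (0.87) and FSD1L (0.86). LINC02893 had log2 fold changes of 0.59 ± 0.09 with miR-1 and 0.92 ± 0.10 with miR-133a, and FSD1L of 0.49 ± 0.10 and 1.25 ± 0.13. After PTBP1, GCH1 (-0.94) and PNP, a purine nucleoside phosphorylase (-0.94), were the most opposite. PTBP3 followed other genes: it was most like IQGAP1, a cytoskeletal scaffold (0.93), the dynein subunit DYNC1LI2 (0.90) and CMTM6 (0.89), and most opposite to SEC61A2 (-0.87), TOMM34 (-0.84) and IMPDH1 (-0.83). IQGAP1 had log2 fold changes of -0.81 ± 0.05 with miR-122 and -1.24 ± 0.11 with miR-133a. Between the members, PTBP3 had an r of 0.59 with PTBP1 and -0.52 with PTBP2.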

How the data were processed

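RNA-seq was analysed in 24 libraries. The authors trimmed reads with fastx_clipper, aligned them to hg19 with TopHat 2.1.1 and used featureCounts to count them by strand over exons (mapping quality filtered). They deposited raw counts per gene. A feature length per gene, another column of the deposited tables, was used for levels per kb. The deposited tables of the authors' comparisons (fold changes, p-values and q-values from edgeR 3.24.3) were not used. Of 29794 identifiers, 28543 matched a symbol in GENCODE on GRCh37. In R 4.3.3 with edgeR 4.0.16, each batch was fitted separately with all its groups: filterByExpr (minimum count 10), TMM, a quasi-likelihood fit with group as factor, prior count 0.125, and Benjamini-Hochberg adjustment over all genes tested at 0.05, two-sided. SEs were derived from the F statistic and the fold change. CPM used TMM-scaled library sizes. The members and the lists were chosen with earlier results of these data known. From each list and comparison, at most the 3 lowest and 3 highest called genes were named. Some list genes are not reported here, although they are in the counts. Likeness was computed on log2(CPM + 0.5) for genes with a mean of at least 10 CPM. On simulated data for miR-133a (13893 genes), the fit recovered 80.6% of 1.5-fold and 100% of 2-fold changes, and for miR-1 (14213 genes) 100% of both. It also called 8 and 15 unchanged genes. The simulated libraries were independent and had the spread that the fit had estimated, and only genes above a minimum level were changed. Recovery in the real libraries may therefore be lower. Alternatives were DESeq2 1.42.0, other scaling, filters and fits, and leaving out each library.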

Additional observations from a re-analysis of the deposited data

How the results depend on the processing

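Of 261 recomputed fold changes of members 257 moved by less than the replicate SD, and of 138 differences between miRNAs 137 did. Leaving out 1 library of a group of 2 or 3 moves its mean by less than the SD of that group. Other settings refit the same counts and give nearly the same estimates. Little movement was thus built in, and nothing is read from these numbers. Where 1 library of batch 1 was left out, the lone library was assumed to vary like the other groups. Leaving out libraries gave log2 fold changes of -0.80 to -0.77 for PTBP1 and 1.41 to 1.47 for PTBP2 with miR-1, of -0.046 to 0.0050 for PTBP2 and -0.36 to -0.25 for PTBP3 with miR-122, and of -0.86 to -0.83 for PTBP1 between miR-1 and miR-122. Calls over all genes tested depended on the setting. With DESeq2 they went from 3520 to 1726 with miR-1 and from 849 to 395 with miR-122. With miR-133a they went from 750 to 1006 with DESeq2 and to 2349 with only the 2 groups compared. With miR-372 and only the 2 groups they went from 1599 to 811. Counts of called list genes likewise depended on the setting. With miR-1 the count was 16, but 10 with the replicate block, 7 with the DESeq2 Wald test and 7 to 16 without single libraries (7 without either miR-1 library). With miR-122 it was 6, but 3 with DESeq2 and 3 to 10 without single libraries (10 without empty vector replicate 2, 3 without either miR-122 library). With miR-133a it was 6, but 10 with only the 2 groups compared and 3 to 6 without single libraries (3 without any one miR-133a library or empty vector replicate 2 or 3). With miR-155 it was 1, but 0 with more than 1 CPM required in every library, 3 with the replicate block, 0 with only the 2 groups and 0 to 2 without single libraries. With miR-302a it was 3 and 1 to 3 without single libraries. With miR-372 it was 4, but 2 with only the 2 groups, and 2 to 6 without single libraries. With miR-373 it was 3 and 1 to 2 without single libraries. Among those called under every setting but the crossed one were CELF1, PKM, SMG5, SRC and TPM1 with miR-1, MBNL1, PKM and RAVER1 with miR-122, CASP2, FLNA and TPM1 with miR-133a, MBNL1 with miR-302a, and MAPT and MBNL1 with miR-372. The causes were not tested beyond the smaller number of libraries. Whether replicate numbers pair the libraries was not settled. Same-numbered libraries of a miRNA and its control correlated between -0.545 and 0.664 in their deviations from the group means. For no miRNA were all pairs above 0.1, but with miR-373 they ran from 0.099 to 0.664. The replicate block raised the calls over all genes in every comparison of batch 2 (750 to 1308 with miR-133a, 721 to 1122 with miR-373). It lowered them in batch 1 (3520 to 2939 with miR-1, 849 to 656 with miR-122). The block moved no value of a member by as much as the replicate SD, and gave log2 fold changes for PTBP1 of -0.79 with miR-1 and -1.02 with miR-133a. Every group of a batch holds the same replicate numbers, so a block can hardly move a difference between groups. These values therefore do not show whether the libraries are paired. With the control numbers of batch 1 crossed, an alternative chosen after seeing the data because the correlations there were -0.367 and -0.242, 20 list genes were called with miR-1 and 10 with miR-122. Of all genes tested, 4445 and 1622 were called there. Shares of the family moved by at least the SD of their group in 25 of the 27 values recomputed with the other exon lengths. In groups of 2 or 3, leaving out 1 library cannot move the mean by the SD of the group. Nothing is therefore read from the 72 values without single libraries. All 15 counts of distinct seed matches were the same when the 3'UTRs of all coding transcripts were pooled, although most sites lie in only part of the transcripts.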
